A study of Homo sapiens with 4 samples.

Results

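Cystatins and the lysosomal proteases called cathepsins were followed by their transcripts in 4 human colorectal cancer cell lines. The 10 genes were taken by symbol from the 57746 genes listed: the secreted cystatins CST1, CST2, CST3, CST4 and CST6, the intracellular stefin CSTB, and the cathepsins CTSB, CTSD, CTSH and CTSZ. They were picked with their levels in these 4 libraries known, so those levels are given as a description with no test. DLD1 is a colorectal cancer line of epithelial character, and the other lines were derived from it. SA was grown from colonies in soft agar and SPH from colonospheres, and both are labelled mesenchymal. METS came from a metastasis that a xenograft formed in the lung. METS and the parental DLD1 are labelled epithelial. All 4 lines were grown in the same medium with serum. Whether a derived line is 1 clone or a pool is not given in the sources used here.

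Cystatins are small proteins that plug the active site of cysteine cathepsins, and some of them also block legumain, a related lysosomal cysteine protease. Secreted cystatins act outside the cell and in the secretory and endocytic route, whereas stefins act in the cytosol. In intestinal epithelium cathepsins break down proteins in the lysosome, and cathepsins released by tumour cells can cut matrix and cell adhesion proteins. CTSD is an aspartic protease, which cystatins do not inhibit, so the label of cathepsin targets holds for CTSB, CTSH and CTSZ and not for CTSD.

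Each line has 1 library, so no difference between lines has a replicate error. Levels are in RPKM, reads per kb of gene scaled to the size of the library, and can be compared between genes. Differences between lines are differences in log2(RPKM + 1), which understate the change of low genes. A gene entered a comparison of 2 lines where the higher of them reached 1 RPKM, and a difference of at least 2-fold on this scale was counted. The step of the low values put 1 RPKM of a gene of 1 kb at 48.7 reads in SA, 52.8 in SPH, 50.3 in METS and 53.95 in DLD1. Read numbers given for CST1, CST2, CST4 and CST6 are estimates from that step and the exon length, and the 95% intervals beside them (exact Poisson for a level, exact conditional binomial for a ratio) cover counting error only. All 7 listed markers of colon epithelium reached 1 RPKM in at least 1 line. CDH1 stood at 94.5, 97.3 and 102.7 RPKM in SA, SPH and METS, against 115.3 in DLD1, and EPCAM at 222, 231 and 263, against 212. KRT20 stood at 4.06, 3.18 and 0.50 RPKM, against 21.9, while KRT8 was highest in METS, at 1084 RPKM against 817 in DLD1. The mesenchymal marker VIM had 12.5 RPKM in SA and 12.2 in SPH, against 0.22 in METS and 0.18 in DLD1. The other listed mesenchymal markers, FN1, CDH2 and ZEB1, stayed under 1 RPKM in every line. FN1 had 0.56 RPKM in SA and 0.69 in SPH, against 0.43 in METS and in DLD1. CDH2 had 0.18, 0.21, 0.12 and 0.15 RPKM in SA, SPH, METS and DLD1, and ZEB1 0.26, 0.23, 0.06 and 0.02. None of the 6 fibroblast and 3 endothelial markers found reached 1 RPKM, and of 7 leukocyte markers CD14 did, at 1.36 RPKM in METS.

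CST1, which encodes cystatin SN of saliva and tears, was high in the mesenchymal lines and low in the epithelial ones. It stood at 5.52 RPKM in SA, 6.93 in SPH and 0.02 in METS, against 0.70 in DLD1. These levels correspond to about 234, 319 and 1 reads in SA, SPH and METS, against 33 in DLD1, with intervals of 4.83 to 6.27, 6.19 to 7.74 and 0.000577 to 0.127 RPKM, against 0.483 to 0.985 RPKM. The levels of the mesenchymal and the epithelial lines did not overlap, and METS lay below its parental line. The ratio of SA over DLD1 was 7.89 (5.45 to 11.7), that of SPH over DLD1 9.90 (6.90 to 14.6) and that of METS over DLD1 0.0286 (0.000799 to 0.194), with differences of 1.94, 2.22 and -0.74 in log2(RPKM + 1). SPH over SA had a ratio of 1.26 (1.06 to 1.49), and METS over SA one of 0.00362 (0.000104 to 0.0233). The METS value rests on about 1 read. METS and DLD1 were both under 1 RPKM, so METS over DLD1 did not enter the count. In bulk RNA, fewer cells that express a gene and less RNA per cell cannot be told apart, here as in the values that follow.

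CST2, the gene of cystatin SA, and CST4, that of cystatin S, are close copies of CST1 in the same cluster on chromosome 20. CST2 stood at 0.36 RPKM in SA, 0.48 in SPH and 0 in METS, against 0.07 in DLD1, about 13, 19 and 0 reads against 3. The 0 in METS allows up to 0.0797 RPKM, a limit set at 3 reads for a listed 0 and not the upper end of the Poisson interval. The intervals were 0.190 to 0.611 RPKM in SA and 0.290 to 0.752 in SPH, against 0.0153 to 0.217 in DLD1. The ratio of SPH over SA was 1.33 (0.632 to 2.97) and that of METS over DLD1 had an interval of 0 to 2.60, so counting error leaves the order within each class unresolved. CST2 stood at 6.52% of CST1's level in SA and 6.93% in SPH, against 10.0% in DLD1. CST4 stood at 0.03 RPKM in SA and in SPH, about 1 read each, and is listed at 0 in METS and DLD1, which allows up to 0.0794 and 0.0740 RPKM. Neither reached 1 RPKM in any line. The 3 copies have coding sequences of 426 bases that differ at 50 positions, and CST1 was 91.3% identical to CST2 and 92.7% to CST4 over this length, against 71.3% to CST5 and 69.8% to CST3. Of all windows of 36 bases in the CST1 transcript 7.72% were also in CST2 and 36.1% in CST4, and of windows of 100 bases 0% and 8.02%. Neither the read length nor the treatment of reads with several matches is given in the labels, and the part of shared reads in the CST2 values was not tested.

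CST6 encodes cystatin E/M, a secreted cystatin that also inhibits legumain. It stood at 0.84 RPKM in SA, 0.32 in SPH and 0.97 in METS, against 4.98 in DLD1. About 31, 13 and 37 reads lay behind the derived lines, against 204 in DLD1, with intervals of 0.570 to 1.19, 0.173 to 0.555 and 0.682 to 1.34 RPKM, against 4.32 to 5.71 RPKM. All 3 derived lines lay below DLD1 and SPH was the lowest, while the intervals of SA and METS overlapped. The ratios over DLD1 were 0.169 in SA (0.112 to 0.247), 0.0643 in SPH (0.0341 to 0.114) and 0.195 in METS (0.133 to 0.277), with differences of -1.70, -2.18 and -1.60. SPH over SA had a ratio of 0.381 (0.186 to 0.761), METS over SPH one of 3.03 (1.55 to 6.12) and METS over SA one of 1.15 (0.697 to 1.92), the only interval of these that holds 1. CST1 and CST6 thus stood on opposite sides of DLD1 in SA and SPH and both lay below it in METS.

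CST3, which encodes cystatin C and is made by most cell types, was near constant. It stood at 50.4 RPKM in SA, 57.6 in SPH and 54.6 in METS, against 56.2 in DLD1, with differences of -0.16, 0.03 and -0.04. CSTB, the stefin that guards the cytosol against leaked cathepsins, varied least of the members that reached 1 RPKM, at 67.7, 68.2 and 70.7 RPKM in SA, SPH and METS, against 69.7 in DLD1. Its highest level was 1.04 times its lowest. CST3 and CSTB together held 94.6%, 94.2% and 99.2% of the summed level of the 6 cystatin members in SA, SPH and METS, against 95.6% in DLD1. That sum was 125, 134 and 126 RPKM in SA, SPH and METS, against 132 in DLD1, so the shifts of CST1 and CST6 were small beside it. The sum and the shares leave out CST7, a cystatin gene that is not a member. CST7 stood at 25.7, 20.3 and 40.4 RPKM in SA, SPH and METS, against 50.8 in DLD1.

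**Figure D1:**
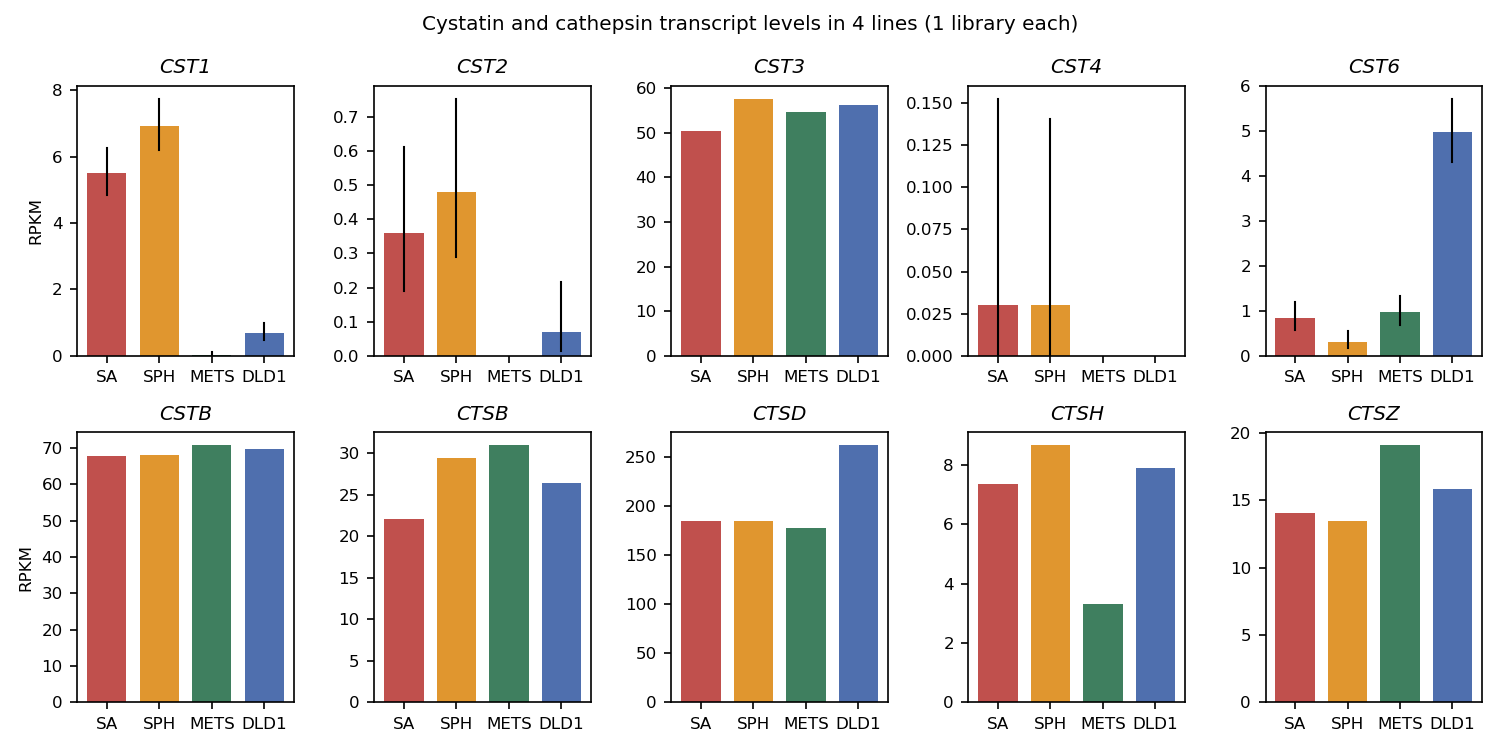
Level of each of the 10 genes in RPKM (linear axes from 0, scaled per gene) in SA, SPH, METS and DLD1, 1 library each; lines on CST1, CST2, CST4 and CST6 are 95% Poisson intervals of the estimated reads where the listed value is above 0. CST1 and CST2 are higher in SA and SPH than in METS and DLD1, with CST2 under 1 RPKM in every line. CST6 and CTSD are highest in DLD1, CTSH is lowest in METS at 3.32 RPKM, and CST3 and CSTB are level.

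Among the cysteine cathepsins, CTSH, an aminopeptidase of the lysosome, was set apart in METS. It stood at 7.36 RPKM in SA, 8.65 in SPH and 3.32 in METS, against 7.88 in DLD1. METS lay below the 3 other lines, which were close to each other, and the differences from DLD1 were -0.09, 0.12 and -1.04. With median-of-ratios scaling the METS difference was -0.998, just short of 2-fold. CTSZ, a carboxypeptidase, was highest in METS, at 14.1, 13.4 and 19.1 RPKM in SA, SPH and METS, against 15.8 in DLD1. Both mesenchymal lines lay below both epithelial lines, by less than 2-fold (differences from DLD1 of -0.16, -0.22 and 0.25). With a 1.1-fold rule CTSZ stood apart between the classes, as did 1355 of 11664 genes, 494 of them lower like CTSZ. It did not meet the stricter fold of the class rule used below, so this order by itself does not set CTSZ apart. CTSB, the endopeptidase most often linked to matrix breakdown by tumour cells, stood at 22.1, 29.4 and 30.9 RPKM in SA, SPH and METS, against 26.4 in DLD1. SA was the lowest and METS the highest, with differences of -0.25, 0.15 and 0.22. SPH stood 1.33 times as high as SA and METS 1.40 times. The summed level of these 3 genes was 43.5, 51.5 and 53.3 RPKM in SA, SPH and METS, against 50.1 in DLD1.

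CTSD, the main aspartic protease of the lysosome, was the most abundant of the 10 genes in every line. It stood at 185 RPKM in both SA and SPH and at 178 in METS, against 262 in DLD1, with differences of -0.50, -0.50 and -0.56. The 3 derived lines were within 1.04-fold of each other and all lay below DLD1. CTSD made up 80.9%, 78.3% and 77.0% of the summed level of the 4 cathepsin genes in SA, SPH and METS, against 84.0% in DLD1, and that sum was 228, 237 and 231 RPKM, against 312. In GENCODE 29, 1304 of the 3126 exon bases of CTSD also belong to AC068580.4 on the same strand and 493 to AC068580.3 on the opposite strand. Neither has a row of that name, the use of strand is not known, and shared reads cannot be told apart here.

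Promoters from RefSeq (GRCh38.p14) matched 4 of the 10 genes: CST3, CTSD, CTSH and CTSZ. The 250 bases before the gene start are shown for CTSD and CTSH, the matched genes with the widest range over the lines, at chr11:1763928-1764177 and chr15:78945047-78945296, both on the minus strand and written 5′ to 3′ along the gene. Capitals mark the GC-box GGGCGG, on either strand, and the E-box CACGTG, which is the core of the element read by the lysosomal regulator TFEB. In CTSD 1 base is shared by a pair of GC-boxes.
CTSD: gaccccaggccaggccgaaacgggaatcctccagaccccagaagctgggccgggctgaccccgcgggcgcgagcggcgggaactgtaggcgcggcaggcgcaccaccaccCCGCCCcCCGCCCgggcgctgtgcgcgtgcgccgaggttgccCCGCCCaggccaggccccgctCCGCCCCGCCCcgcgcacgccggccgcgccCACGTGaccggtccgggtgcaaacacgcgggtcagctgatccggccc
CTSH: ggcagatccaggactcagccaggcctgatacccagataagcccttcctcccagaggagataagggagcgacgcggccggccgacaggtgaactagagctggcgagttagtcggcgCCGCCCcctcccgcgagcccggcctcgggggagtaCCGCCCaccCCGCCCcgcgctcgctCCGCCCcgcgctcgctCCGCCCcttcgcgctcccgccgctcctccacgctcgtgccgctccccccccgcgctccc
CTSD and CTSH each held 5 GC-boxes in this window, and CTSD held 1 E-box where CTSH held 0. CST3 held 1 GC-box and CTSZ 5. Of 35116 RefSeq windows of the same length 42.6% held a GC-box and 6.34% an E-box on either strand. The TATA-box TATAAA (in 10.7% of windows) and the CCAAT-box CCAAT (in 32.0%), searched in the same way, were in none of the 4. GC content was 79.2% in CTSD and 74.4% in CTSH, against a median of 58.0% over all windows. The matches are a description and not evidence of binding.

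Of the 10 members CST1, CST6 and CTSH crossed the 2-fold line over DLD1 in at least 1 line. In SA over DLD1, 2 of the 8 members that entered did so, CST1 higher and CST6 lower, against 0.677% of all 11367 genes (0.44% higher and 0.238% lower). In SPH over DLD1 the same 2 of 8 did, against 1.26% of 11446 genes (0.716% higher and 0.542% lower). In METS over DLD1, CST6 and CTSH were lower among 7 members, against 1.42% of 11275 genes (0.523% higher and 0.896% lower). In SPH over SA it was 0 of 7 members, against 0.262% of 11431 genes. The members were chosen on these values, so nothing is read from the excess over all genes. The 3 comparisons with DLD1 share its 1 library, and a low or high value there moves all of them.

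**Figure D2:**
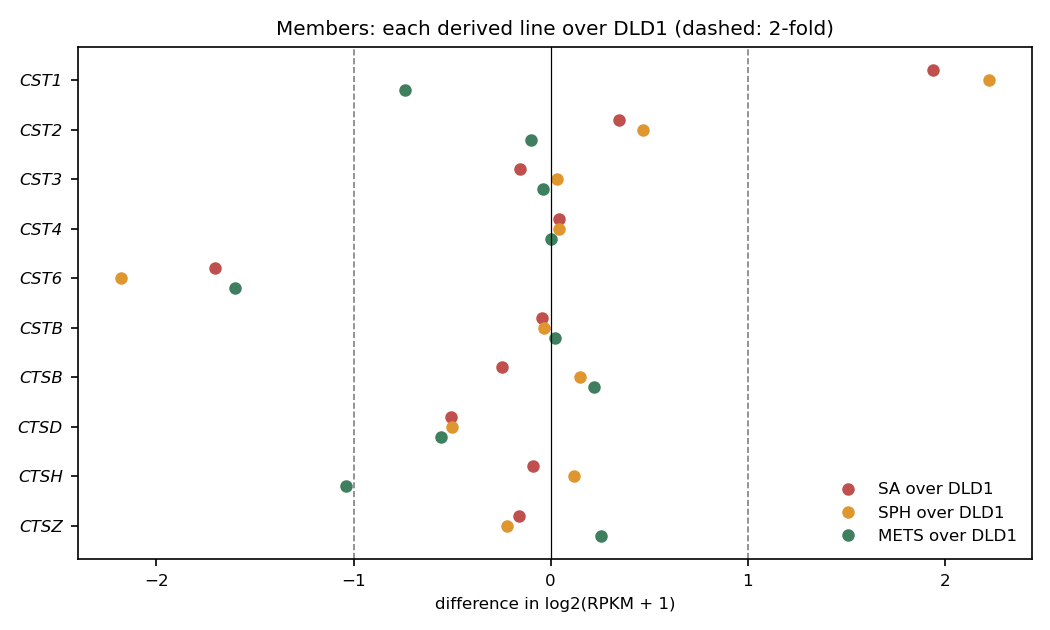
Difference in log2(RPKM + 1) of SA, SPH and METS over DLD1 for each of the 10 genes (points, 1 library per line); dashed lines mark 2-fold. CST1 lies at 1.94 and 2.22 in SA and SPH and at -0.74 in METS, CST6 lies from -2.18 to -1.60 in all 3 lines, and CTSD lies near -0.5 in all 3.

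**Figure D3:**
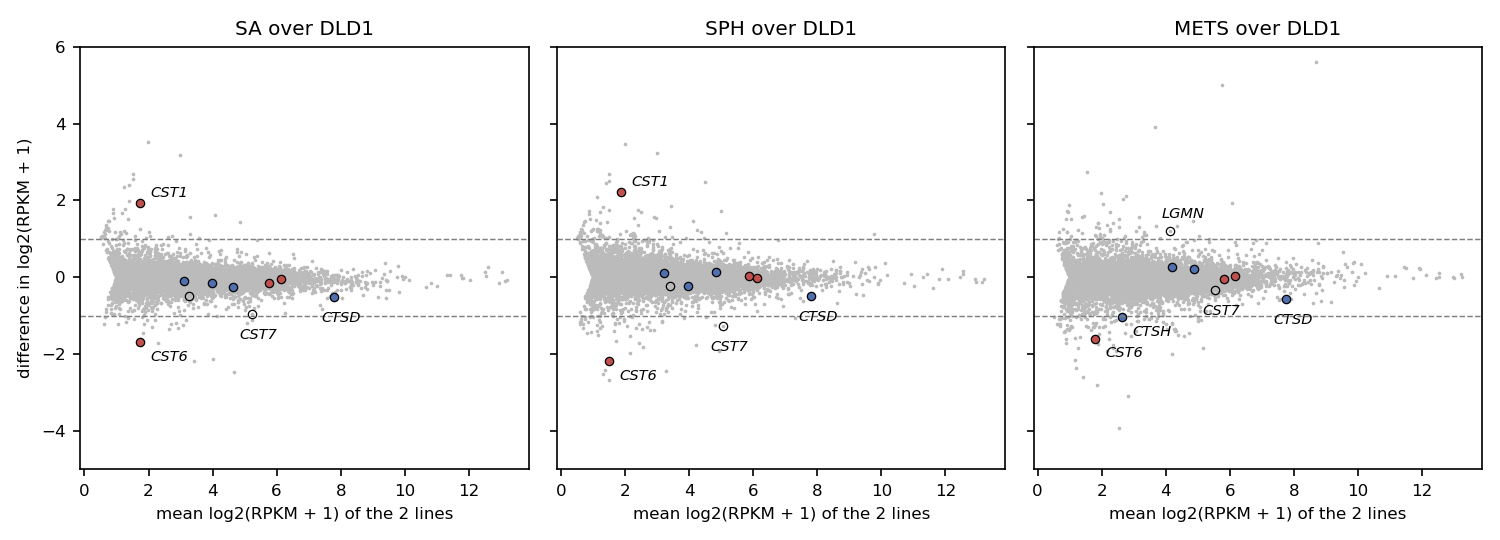
Difference in log2(RPKM + 1) of each derived line over DLD1 (y axis) against the mean of both lines (x axis) for all genes of at least 1 RPKM in either line (grey); cystatin members are red, cathepsin members blue, and CST7 and LGMN open circles, labelled where the difference is large. CST1 and CST6 lie outside the 2-fold lines in SA and SPH, and CTSD lies below 0 among the most abundant genes in each panel.

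Between the 2 lines of each class, CST1 was the 1 member of 8 at least 1.2-fold higher in both mesenchymal lines than in both epithelial lines, with mean levels of 6.23 and 0.360 RPKM and a class difference of 2.45 in log2(RPKM + 1). By the same rule 4.42% of 11664 genes stood apart, 2.55% (297 genes) higher and 1.87% (218 genes) lower; with median-of-ratios scaling 222 were higher and 313 lower. CST6 had a class difference of -1.14, but SA and METS were close (0.84 and 0.97 RPKM), so it did not separate the classes. Without METS, CST6 and CTSD also separated them, both lower in SA and SPH than in DLD1, and without SA, CST6 did. Without DLD1, CTSH was higher and CTSZ lower in SA and SPH than in METS. Over all 11664 genes the count also went up with a library left out, to 1087 without METS, 1500 without SA and 2246 without DLD1, against 515 with all 4 lines. CST3 and CSTB had class differences of -0.04 and -0.05.

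The genes most like CST1, CST6 and CTSH in pattern were sought among 11663 others by the root mean square difference of log2(RPKM + 1) centred on the mean of the 4 lines. Other members were skipped, as were names of clone or LINC type, ribosomal protein genes, and small and mitochondrial RNAs. Any symbol that ends in P and digits was skipped too. The nearest genes given here are those among the names kept, and a skipped gene may lie nearer. Nearest to CST1 were the basal keratin KRT5 (0.25), the matrix protein gene SPARC (0.27) and the WNT antagonist DKK4 (0.34). KRT5 stood at 4.96 RPKM in SA and 5.15 in SPH, against 0.07 in METS and 0.13 in DLD1. Nearest to CST6 were MAGED1 (0.20), PRR9 (0.21) and the hair keratin-associated gene KRTAP3-1 (0.29). MAGED1 stood at 3.79, 2.11 and 2.99 RPKM in SA, SPH and METS, against 9.94 in DLD1. Nearest to CTSH were the integrin subunit ITGA6 (0.04), the immunoproteasome subunit PSMB8 (0.05) and CCRL2 (0.06). ITGA6 stood at 37.8, 42.7 and 20.2 RPKM in SA, SPH and METS, against 41.1 in DLD1. These likenesses rest on 4 libraries.

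Other genes of the pathway came from 9 lists. CST7, which encodes cystatin F, known from the endosomes of cytotoxic and other leukocytes, was at 25.7 RPKM in SA and 20.3 in SPH, against 40.4 in METS and 50.8 in DLD1. Its class difference was -0.96 ± 0.16 (SE), with adjusted p = 0.17 (limma-trend), so it did not pass. CST7 lay at least 1.2-fold lower in both mesenchymal lines than in both epithelial lines, as did 1.87% of 11664 genes. The leukocyte markers PTPRC and TYROBP are listed at 0 in all 4 lines, and the 7 leukocyte markers summed to 1.11, 1.03 and 1.80 RPKM in SA, SPH and METS, against 1.26 in DLD1. The remaining 11 genes of that list stayed under 1 RPKM, among them CST5 at 0.24, 0.35 and 0.37 RPKM in SA, SPH and METS, against 0.07 in DLD1. Stefin A, CSTA, stood at 0.12 RPKM in SA and 0.06 in SPH and is listed at 0 in METS and DLD1.

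LGMN, the gene of legumain, was highest in METS, at 7.22, 8.73 and 25.4 RPKM in SA, SPH and METS, against 10.4 in DLD1 (differences of -0.48, -0.23 and 1.21). Its class difference of -0.96 ± 0.37 (SE) did not pass over all lines (adjusted p = 0.55, limma-trend), since METS and DLD1 were far apart. The other cathepsin genes that reached 1 RPKM varied less. CTSL, an endopeptidase, stood at 19.7, 16.6 and 20.5 RPKM in SA, SPH and METS, against 21.6 in DLD1. CTSK, the collagen-degrading cathepsin of osteoclasts, stood at 1.51, 1.65 and 1.15 RPKM, against 1.12, and CTSC, which activates serine proteases, at 1.99, 1.74 and 2.42, against 2.11. Of 13 listed genes of this group 6 entered, with median differences of -0.05, -0.13 and 0.05 in SA, SPH and METS over DLD1. The serpin gene SERPINA1, the inhibitor known for neutrophil elastase, stood at 2.26, 4.36 and 1.06 RPKM in SA, SPH and METS, against 1.44 in DLD1 (class difference 0.90 ± 0.24 SE, adjusted p = 0.38, limma-trend). SERPINB1, another inhibitor of neutrophil proteases, was highest in METS, at 39.5, 40.2 and 46.7 RPKM in SA, SPH and METS, against 38.4 in DLD1. Of the 4 serpin genes that entered, 3 lay above DLD1 in SA (2 with median-of-ratios scaling), 4 in SPH and 3 in METS, against 55.2%, 55.9% and 44.7% of all genes.

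Genes that carry enzymes to the lysosome were near level, with medians of 0.02, 0.02 and -0.11 over 14 genes in SA, SPH and METS over DLD1; with median-of-ratios scaling the first 2 were -0.02 and -0.03. IGF2R, the large mannose 6-phosphate receptor, was highest in METS (13.8, 13.1 and 19.3 RPKM in SA, SPH and METS, against 14.8 in DLD1), and the sorting receptor SORT1 was highest in SA (11.2, 10.5 and 7.62, against 8.26). The lysosomal hydrolases lay lower in METS, 24 of 28 below DLD1 with a median of -0.17, against a median of -0.03 over all genes of that comparison, of which 44.7% were higher. The acid sphingomyelinase SMPD1 stood at 10.2, 8.44 and 4.75 RPKM in SA, SPH and METS, against 11.7 in DLD1, and the acid glucosidase GAA at 16.5, 20.1 and 9.86, against 19.8. In SA 20 of 28 and in SPH 15 of 28 lay below DLD1, with medians of -0.09 and -0.01, against 0.03 over all genes in both. With median-of-ratios scaling 24, 19 and 23 of 28 lay below DLD1 in SA, SPH and METS. The medians were then -0.130, -0.063 and -0.133. That scaling by itself moves the log2 ratios of all genes by about -0.044, -0.054 and 0.054 in SA, SPH and METS over DLD1. The median over all genes with that scaling is not given, so SA and METS are not ranked by it here. Of 12 lysosomal membrane and saposin genes 9, 8 and 10 lay below DLD1 in SA, SPH and METS (medians of -0.06, -0.10 and -0.11), and 10, 10 and 8 with median-of-ratios scaling. Before that scaling 55.2%, 55.9% and 44.7% of all genes lay above DLD1 in SA, SPH and METS, with medians of 0.03, 0.03 and -0.03. The share over all genes with that scaling is not given. The membrane list held the cholesterol carrier NPC2 at 44.7, 41.7 and 29.7 RPKM in SA, SPH and METS, against 55.6 in DLD1. LAPTM4B, also on it, was higher in METS (18.4 RPKM, against 12.6). PSAP, the precursor of the saposins and itself cleaved by CTSD, stood at 104, 123 and 95.1 RPKM in SA, SPH and METS, against 110 in DLD1.

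The proton pump that acidifies lysosomes had medians of -0.09, -0.08 and 0.03 over 16 genes, with ATP6V0C at 100.1, 91.7 and 125 RPKM in SA, SPH and METS, against 112 in DLD1. Of the regulators of lysosome genes TFEB stayed at or below 0.16 RPKM, and TFE3 stood at 12.2, 13.6 and 9.82 RPKM in SA, SPH and METS, against 11.97 in DLD1. MITF, of the same family, stood at 2.47, 2.34 and 1.70 RPKM, against 2.87. Among partners and substrates at the cell surface, 10 of 11 genes lay below DLD1 in SA, 9 of 11 in SPH and 10 of 11 in METS, with medians of -0.33, -0.34 and -0.24. Over all genes the medians were 0.03, 0.03 and -0.03, and 55.2%, 55.9% and 44.7% lay above DLD1 in SA, SPH and METS. CAV1, the coat protein of caveolae, stood at 5.77, 5.34 and 4.24 RPKM in SA, SPH and METS, against 8.54 in DLD1. THBS1, the matrix protein thrombospondin, stood at 15.9, 12.4 and 9.89 RPKM, against 16.3. TGFBR2, a receptor of TGF-beta, was higher in both mesenchymal lines, at 26.8 and 30.4 RPKM, against 18.8 in METS and 22.4 in DLD1. Its class difference of 0.46 ± 0.13 (SE) did not pass (adjusted p = 0.40, limma-trend). SA over DLD1 differed by 0.25, short of 1.2-fold. At 1.1-fold 861 of 11664 genes were higher in all 4 class pairs.

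Over all lists 0 of 97 tested genes passed the class test in either direction (threshold 0.05 on the adjusted p, limma-trend), and 0 did by limma without trend. Over all 11262 genes 0.355% passed, 0.32% higher and 0.0355% lower. By limma-trend 9 of the 97 had an unadjusted p under 0.05, 3 higher and 6 lower in the mesenchymal lines, against 974 of all 11262 genes (8.65%). Each class holds 2 different lines, so the p-values say nothing of the spread between cultures of 1 line. Without DLD1 the epithelial class is METS alone and has no spread, so the calls of that fit are not given. LGMN was lower in SA and SPH than in METS (7.22 and 8.73 RPKM, against 25.4). SMPD1 was higher in SA and SPH than in METS (10.2 and 8.44 RPKM, against 4.75).

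**Figure D4:**
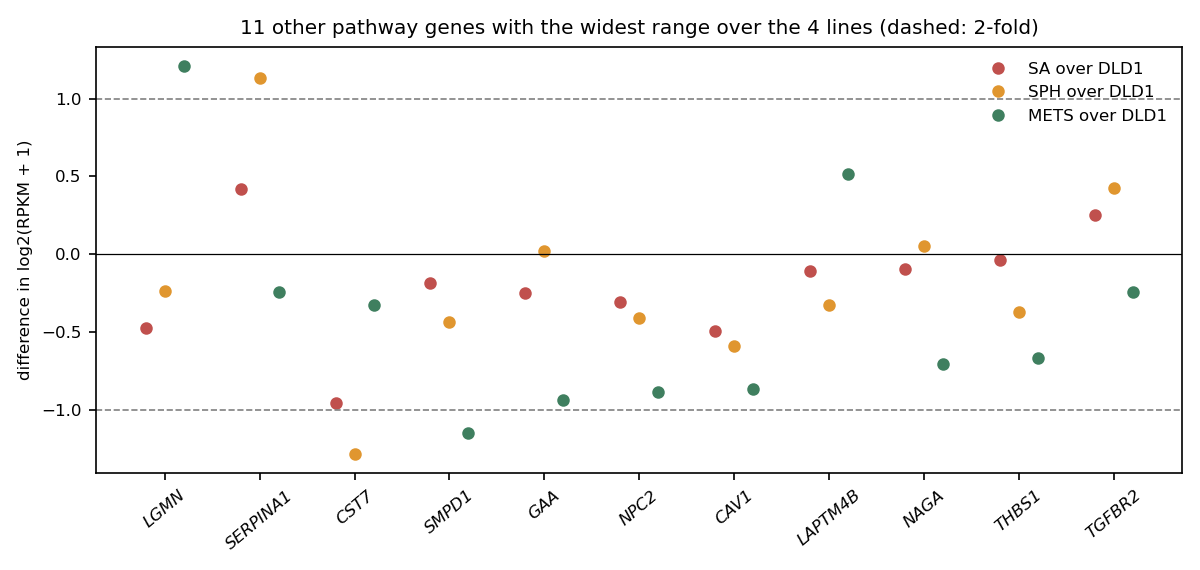
Difference in log2(RPKM + 1) of SA, SPH and METS over DLD1 for the 11 pathway genes outside the 10 members with the widest range over the 4 lines, ordered by that range; dashed lines mark 2-fold. LGMN lies at 1.21 in METS and below 0 in SA and SPH, CST7 lies lowest in SPH at -1.28, and SMPD1, GAA and NPC2 lie lowest in METS.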

How the data were processed

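Total RNA of 4 lines was sequenced, 1 library each. The authors deposited 1 table, read from its values as RPKM (2 decimals); the submitters' processing notes name the build hg19. Aligner, counter, annotation and use of strand: not given in the sources used here. Column sums ran from 275639 to 284919.

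Depth was taken as the period that best fits low values (above 0 and under 0.5 RPKM) of 427 to 473 genes of 500 to 1000 exon bases (GENCODE 29). Between 61.1% and 66.2% of these fell within 0.15 reads of a whole number. The period was chosen to fit these same values, so this share is not a separate check. Step and limma scripts were tested on simulated data.

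Values were used as log2(RPKM + 1). The class test was limma-trend (limma 3.58.1, R 4.3.3) with Benjamini-Hochberg adjustment over the 11262 genes that reached 1 RPKM in 2 or more libraries. Alternatives were other pseudocounts, filters, folds, scaling and libraries left out. The 10 genes and the lists were chosen with earlier results of these data known. Named pathway genes were to be those past the class test and up to 4 per list by range over the lines, and a few of these are not described; CST5, CSTA and TFEB were named after their values were seen. Of the 127 symbols listed, older names included, 122 were found. Python 3.11.15, pandas 2.3.3, scipy 1.17.1 and Biopython 1.88 were used.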

Additional observations from a re-analysis of the deposited data

How the results depend on the processing

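In SA over DLD1 the 2 members past 2-fold became 0 with a pseudocount of 5 or a 4-fold rule and 1 (CST1) with a minimum of 5 RPKM. In SPH over DLD1 the 2 became 1 with a pseudocount of 5 and 1 with a minimum of 5 RPKM. In METS over DLD1 the 2 became 0 with a pseudocount of 5 or a 4-fold rule, 1 with a minimum of 5 RPKM and 1 with median-of-ratios scaling. SPH over SA gave 0 under each of the 7 alternatives. The 1 member apart in all class pairs became 2 with a 1.1-fold rule, and 1 to 3 with a library left out, while the 515 of all genes became 1355 and 931 to 2246. The 0 pathway genes past the class test stayed 0 under each alternative that kept all 4 libraries. Over all genes, the counts at 2-fold with pseudocounts of 0.1 and 5 were 211 and 12 in SA, against 77, 350 and 24 in SPH, against 144, and 368 and 31 in METS, against 160. The class test called 40 genes over all, 26 with a pseudocount of 0.1, 5 with a minimum of 5 RPKM and 0 with no filter (limma-trend). A class test with a library left out has a class of 1 line with no spread, so its calls are not given. No log2 difference of a member past 2-fold changed sign with another pseudocount or scaling. No paired analysis was possible because each line has 1 library. Values under 0.1 RPKM rest on few reads.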
